A study of Mus musculus with 9 samples.

Results

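The 10 genes described here encode receptors of the interleukin 6 family of cytokines and the signalling proteins downstream of them: the receptor subunits Il6ra, Il6st, Lifr, Osmr and Cntfr, the kinase Jak1, the transcription factor Stat3, the feedback inhibitor Socs3 and the C/EBP transcription factors Cebpb and Cebpd. They were chosen by gene symbol, each symbol matched 1 row, and they are 10 of the 55401 genes in the deposited table. All 10 passed the filter on low counts that left 15893 genes for testing.

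Cytokines of this family bind a receptor subunit of their own, such as Il6ra for interleukin 6 or Cntfr for ciliary neurotrophic factor, and signal through the shared subunit gp130, encoded by Il6st, often paired with Lifr or Osmr. Receptor-bound Janus kinases such as Jak1 then phosphorylate STAT3, which enters the nucleus and turns on genes that include its own inhibitor Socs3 and the C/EBP factors. In the nervous system the pathway is known from motor neuron survival factors, from axon growth after nerve injury and from reactive astrocytes.

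RNA was profiled by Smart-seq2, which copies whole transcripts from small inputs, from spinal cord motoneurons of WT mice. The SBES group had a spinal cord injury followed by synergistic bidirectional electrical stimulation, the Untrained group had the injury alone, and the Sham group has its treatment given as none. Each group has 3 libraries, collected 4 weeks after the injury from neurons that carried a label called TRDA and were drawn into glass electrodes from vibratome slices. The frequency was 10 Hz in library SBES 1, 15 Hz in SBES 2 and 20 Hz in SBES 3. Frequencies are therefore single libraries, and a difference of frequency cannot be told apart from a difference between libraries. The labels name 3 mice per group without tying a library to a mouse and do not give the number of neurons in a library, so the p-values measure the spread between libraries, part of which may be technical.

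Total counts were between 11821145 and 17675948 per library. Transcripts of neurons and of glia were present in every library. The summed level of 11 motor neuron markers was 350 to 466 CPM (counts relative to each library's total after TMM adjustment) in SBES, 248 to 428 in Untrained and 437 to 1062 in Sham libraries, none of them at 0 in a whole group. Much of the Sham sum was Calca, at means of 59.3 CPM in SBES, 65.9 CPM in Untrained and 345 CPM in Sham libraries. Chat averaged 25.9, 27.8 and 29.6 CPM in the same order. Log2 fold changes were negative for 9 of the 11 markers in Untrained against Sham and for 8 in SBES against Sham. For 10 markers of neurons in general the sums were 6573 to 12539 CPM in SBES, 6920 to 7394 CPM in Untrained and 9111 to 13115 CPM in Sham libraries. For 10 oligodendrocyte markers the sums were 47152 to 77150 CPM in SBES, 38432 to 57925 CPM in Untrained and 49512 to 109275 CPM in Sham libraries. For 10 astrocyte markers they were 12085 to 13704 CPM in SBES, 10349 to 15595 CPM in Untrained and 10821 to 14604 CPM in Sham libraries. The levels below are therefore those of a mixture, and in such RNA fewer cells of a type and less RNA per cell cannot be told apart. Libraries SBES 1 and Sham 1 stood apart from the other 7 in a sum over 7 transcripts used as signs of RNA quality, with 73705 and 76650 CPM against 14693 to 34683 CPM.

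Promoter sequence was at hand for 9 of the 10 genes, all except Cebpd, from RefSeq on GRCm38.p6, as the 250 bases before and 50 bases from the start of the gene. Lifr has 2 such windows, Cntfr has 6, in part overlapping, and each other gene has 1. These windows were searched on both strands for the STAT recognition pattern TTCNNNGAA, for the C/EBP pattern TTGCNNAA and for TGACG, the core of the cAMP response element. Of the 32851 windows of all genes, 8.3% hold the STAT pattern, 10.8% the C/EBP pattern and 20.8% TGACG. The windows of Socs3 and Cebpb are shown because these 2 genes were among those furthest above Sham levels in SBES libraries, and capitals mark the matches.
Socs3, chr11:117969317-117969616, minus strand: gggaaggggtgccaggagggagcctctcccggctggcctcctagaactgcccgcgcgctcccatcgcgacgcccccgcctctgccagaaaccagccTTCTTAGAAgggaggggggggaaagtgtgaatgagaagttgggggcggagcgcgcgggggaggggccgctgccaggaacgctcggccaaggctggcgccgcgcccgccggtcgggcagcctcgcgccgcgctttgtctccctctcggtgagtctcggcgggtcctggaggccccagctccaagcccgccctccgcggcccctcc
Cebpb, chr2:167688665-167688964, plus strand: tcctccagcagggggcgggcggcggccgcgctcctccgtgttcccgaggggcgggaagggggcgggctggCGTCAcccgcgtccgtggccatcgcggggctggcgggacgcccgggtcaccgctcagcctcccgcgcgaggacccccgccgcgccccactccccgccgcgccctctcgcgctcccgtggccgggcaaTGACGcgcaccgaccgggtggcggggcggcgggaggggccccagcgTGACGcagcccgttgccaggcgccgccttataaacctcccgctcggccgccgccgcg
The Socs3 window holds TTCTTAGAA at positions -154 to -146 from the start. No other window of these 9 genes holds the STAT pattern, and none holds the C/EBP pattern. The Cebpb window holds TGACG 3 times, at -180 to -176 on the reverse strand and at -53 to -49 and -7 to -3 on the forward strand. Jak1 also has 3 matches to TGACG and Il6ra has 1. A match is a match of letters only. Positions count from the RefSeq start, which for Socs3 lies inside the gene's span in the deposited table and for Cebpb is the first base of that span.

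The first question was which of the genes differed between stimulated and other libraries. The 10 genes were chosen with earlier results of these data known, so the shares below are no independent evidence. In SBES against Sham, 9 of the 10 genes had a positive log2 fold change, against 49.8% of all genes tested, and their median was 1.20, against -0.0018 over all genes. The 7 genes Il6ra, Lifr, Osmr, Stat3, Socs3, Cebpb and Cebpd had every SBES library above every Sham library, which held for 7.1% of all genes. An unadjusted p under 0.05, with SBES higher, was reached by 6 of the 10 genes, against 5.7% of all genes. With adjustment over all 15893 genes, however, edgeR's quasi-likelihood test called none of the 10 at an adjusted p under 0.05, while it called 55 genes in all, or 0.346%. DESeq2 called 4 of the 10, namely Il6ra, Socs3, Cebpb and Cebpd, against 1.89% of all genes. The samples of this comparison carry shared numbers, though no label says that these mark a batch. With the number as a block edgeR called Cebpb and Cebpd (adjusted p = 0.0461 and 0.0319), against 0.831% of all genes. Without the 3 libraries numbered 1, which include those that stand apart in the RNA quality sum, edgeR called 5 of the 10 in SBES against Sham, Il6ra, Osmr, Socs3, Cebpb and Cebpd, against 3.58% of all genes.

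In SBES against Untrained, which compares stimulated with unstimulated injured animals, all 10 log2 fold changes were positive, against 51.7% of all genes, although with scaling by total count alone, which moves the median of all genes to -0.19, those of Cntfr and Jak1 were negative. Their median was 0.64, against 0.015 over all genes. SBES libraries lay above every Untrained library for 5 genes, Il6ra, Osmr, Stat3, Socs3 and Cebpd, which held for 5.66% of all genes. An unadjusted p under 0.05 was reached by 5 of the 10 genes, Il6ra, Stat3, Socs3, Cebpb and Cebpd, against 3.7% of all genes in that direction. No gene of the 15893 passed edgeR's adjusted threshold (0%), and without the libraries numbered 1 none of the 10 did, against 0.0802% of all genes. DESeq2 called Cebpd alone among the 10, against 0.235% of all genes. Both comparisons use the same SBES libraries.

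In Untrained against Sham, the comparison of injury alone, none of the 10 genes had an unadjusted p under 0.05, against 4.45% of all genes. Neither edgeR, which called 0% of all genes, nor DESeq2, which called 0.122%, called any of the 10. For all 10 genes the libraries of the groups overlapped, while they did not for 9.76% of all genes. The difference was positive for 6 of the 10 genes, against 49.1% of all genes. None of the 10 was called with the replicate number as a block (0.0252% of all genes) or without the libraries numbered 1 (0.29%). The largest differences were those of Osmr (log2 fold change 1.05, SE 0.51) and Cebpd (0.94, SE 0.58), both with an edgeR adjusted p of 1. With SBES 3 left out of the shared fit, Cebpd alone of the 10 had an unadjusted p under 0.05 (0.94, SE 0.35), against 4.63% of all genes. For Il6st, Lifr and Jak1 the sign of the small difference depended on the scaling: it was negative as fitted and positive with scaling by total count alone, which moves the median of all genes to 0.18.

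**Figure D1:**
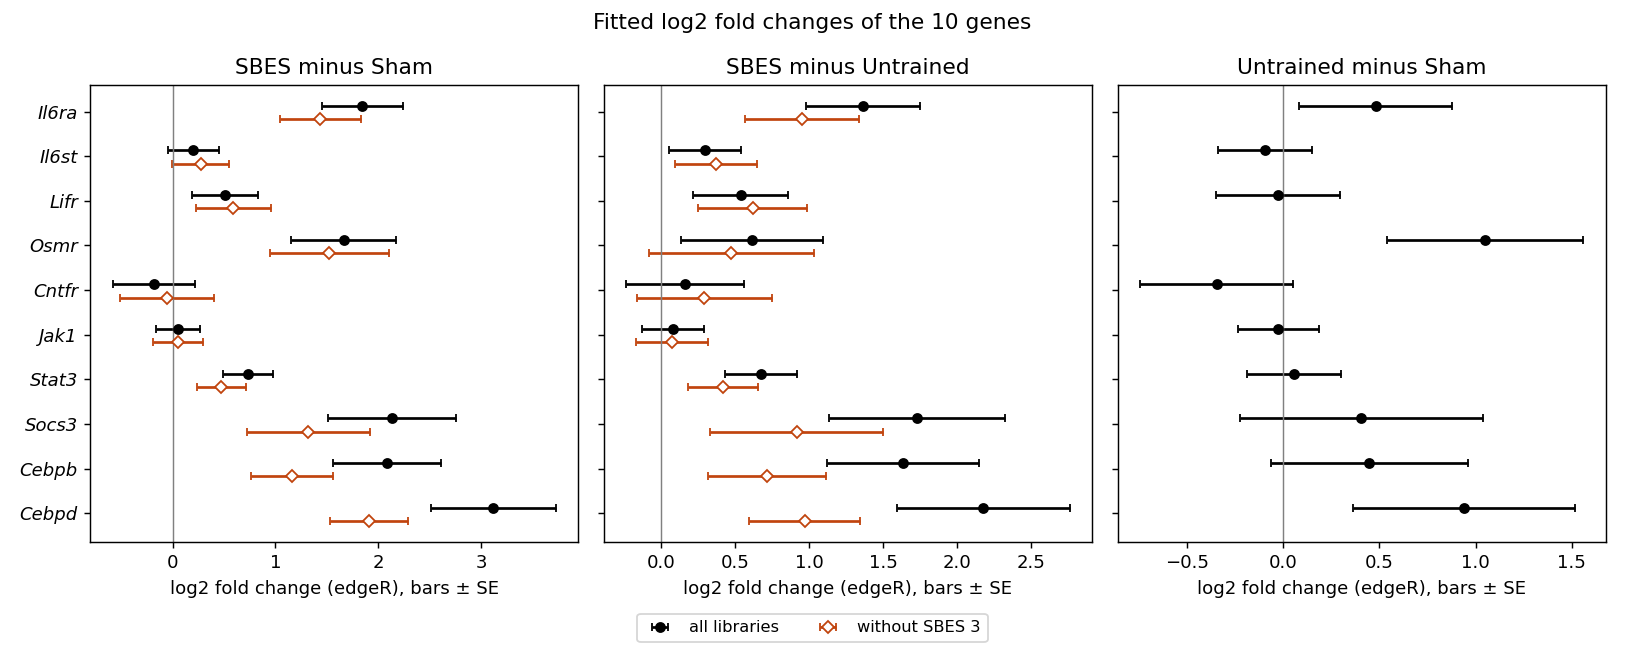
Fitted log2 fold changes of the 10 genes (edgeR, points with bars of 1 SE) in SBES minus Sham, SBES minus Untrained and Untrained minus Sham, with all libraries (filled) and, in the 2 panels with SBES, without library SBES 3 (open). Cebpd lies furthest to the right with all libraries in SBES minus Sham, at 3.12, and Il6st, Cntfr and Jak1 lie near 0, where the sign of Cntfr and Jak1 in SBES minus Untrained and of Il6st, Lifr and Jak1 in Untrained minus Sham changes with scaling by total count.

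Among the receptors, Il6ra, the subunit that binds interleukin 6, had the largest difference from both other groups in SBES with all libraries. It is on chromosome 3 at 89864059 to 89913196 (mm10), minus strand. In the order of replicates 1, 2 and 3, kept throughout, it stood at 6.13, 5.20 and 11.1 CPM in SBES, 2.31, 2.56 and 3.86 CPM in Untrained and 2.72, 2.16 and 1.47 CPM in Sham libraries. Every SBES library was above all 6 other libraries, and SBES 3 was highest. The log2 fold change was 1.85 (SE 0.40) in SBES against Sham (edgeR adjusted p = 0.0852, DESeq2 adjusted p = 0.00171) and 1.36 (SE 0.38) in SBES against Untrained (edgeR adjusted p = 0.749). Without SBES 3 the values were 1.43 and 0.95, each with an unadjusted p under 0.05 (edgeR adjusted p = 0.286 and 0.957).

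Osmr, the receptor subunit that pairs with gp130 to bind oncostatin M, lies on chromosome 15 at 6813577 to 6874969, minus strand. It stood at 4.79, 4.72 and 6.18 CPM in SBES, 3.17, 3.17 and 3.92 CPM in Untrained and 3.27, 1.46 and 0.491 CPM in Sham libraries. The SBES libraries lay above the rest and close together, and the Sham libraries were the most spread. The log2 fold change was 1.66 (SE 0.51) in SBES against Sham (edgeR adjusted p = 0.251, DESeq2 adjusted p = 0.0506) and 0.61 (SE 0.48) in SBES against Untrained (edgeR adjusted p = 0.994). Its size moved with the Sham library left out. In SBES against Sham it was 2.45 without Sham 1 and 1.18 without Sham 3, and in Untrained against Sham 1.86 without Sham 1 and 0.57 without Sham 3.

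Lifr, the receptor of leukaemia inhibitory factor, lies on chromosome 15 at 7090614 to 7197489, plus strand. It stood at 32.9, 20.4 and 22.2 CPM in SBES, 9.78, 25.2 and 16.9 CPM in Untrained and 19.4, 15.7 and 17.9 CPM in Sham libraries. The SBES libraries were above all Sham libraries by a narrow margin and overlapped with Untrained, with a log2 fold change of 0.51 (SE 0.32) in SBES against Sham (edgeR adjusted p = 0.7).

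The shared subunit Il6st, on chromosome 13 at 112464070 to 112510086, plus strand, showed no such separation. It stood at 21.2, 27.3 and 20.8 CPM in SBES, 14.7, 20.3 and 21.4 CPM in Untrained and 24.5, 16.5 and 19.3 CPM in Sham libraries, and the 3 groups overlapped. Its log2 fold change was 0.20 (SE 0.25) in SBES against Sham and 0.30 (SE 0.24) in SBES against Untrained, both differences of about 1 SE. Cntfr, the subunit for ciliary neurotrophic factor, on chromosome 4 at 41657498 to 41697089, minus strand, stood at 43.5, 27.7 and 26.5 CPM in SBES, 13.8, 23.0 and 50.2 CPM in Untrained and 30.7, 33.3 and 46.6 CPM in Sham libraries. Untrained libraries held both its lowest and its highest value, and no comparison differed by more than 1 SE (log2 fold change -0.18, SE 0.40, in SBES against Sham, and 0.16, SE 0.40, in SBES against Untrained).

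**Figure D2:**
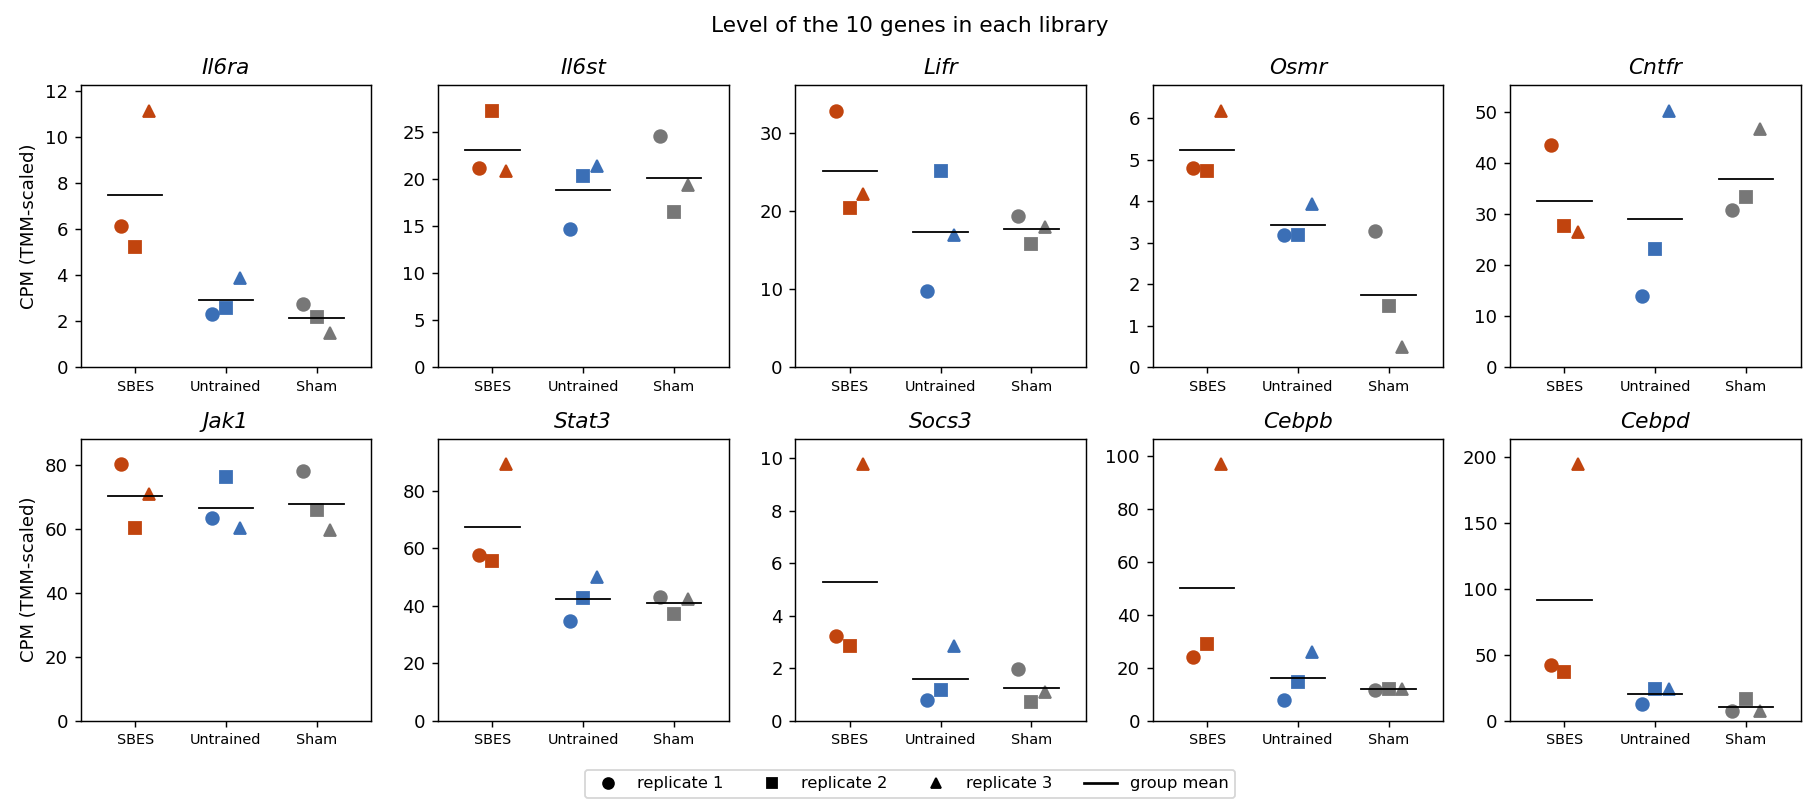
Level of each gene in each of the 9 libraries (points, CPM scaled by the TMM-adjusted library total, linear axes from 0) with the mean of each group (line); marker shape gives the replicate number. Il6ra, Osmr and Stat3 have all SBES libraries above all others, and SBES 3 is far above the other 8 libraries for Socs3, Cebpb and Cebpd.

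Downstream of the receptors, Jak1, the kinase bound to gp130, was close to level. It lies on chromosome 4 at 101152367 to 101265282, minus strand, and stood at 80.1, 60.1 and 70.7 CPM in SBES, 63.3, 76.2 and 60.1 CPM in Untrained and 78.1, 65.7 and 59.5 CPM in Sham libraries. The groups overlapped, and the log2 fold change was 0.05 (SE 0.21) in SBES against Sham and 0.08 (SE 0.21) in SBES against Untrained.

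Stat3, on chromosome 11 at 100885098 to 100939540, minus strand, stood at 57.7, 55.4 and 89.2 CPM in SBES, 34.6, 42.5 and 49.9 CPM in Untrained and 42.9, 37.0 and 42.3 CPM in Sham libraries. All SBES libraries were above all 6 others, with SBES 3 highest. The log2 fold change was 0.73 (SE 0.24) in SBES against Sham (edgeR adjusted p = 0.31) and 0.67 (SE 0.24) in SBES against Untrained (edgeR adjusted p = 0.909), and neither edgeR nor DESeq2 called it. Without SBES 3 the values were 0.47 and 0.42, each with an unadjusted p above 0.05 (edgeR adjusted p = 0.584 and 0.957).

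Socs3, the inhibitor that binds gp130 and Janus kinases and closes the feedback loop, lies on chromosome 11 at 117966079 to 117970047, minus strand, and has the STAT pattern in the promoter window shown above. It was the least counted gene of those that separated, with 29, 41 and 158 counts in SBES, 12, 21 and 47 in Untrained and 18, 11 and 20 in Sham libraries. Those are 3.23, 2.84 and 9.77 CPM in SBES, 0.793, 1.17 and 2.84 CPM in Untrained and 1.96, 0.698 and 1.09 CPM in Sham libraries. SBES 3 stood 3.02 times above the next library, while SBES 2 was only just above Untrained 3, so the separation of SBES from Untrained rests on a margin far below counting error. The log2 fold change was 2.14 (SE 0.62) in SBES against Sham (edgeR adjusted p = 0.216, DESeq2 adjusted p = 0.033) and 1.73 (SE 0.60) in SBES against Untrained (edgeR adjusted p = 0.896). Without SBES 3 it was 1.32 and 0.92 (edgeR adjusted p = 0.542 and 0.957).

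The C/EBP factors had the widest range. Cebpb, a single-exon gene on chromosome 2 at 167688915 to 167690418, plus strand, encodes a factor of acute phase and inflammatory gene expression. It stood at 24.0, 29.0 and 97.0 CPM in SBES, 7.73, 14.8 and 25.9 CPM in Untrained and 11.4, 12.1 and 11.9 CPM in Sham libraries. The Sham libraries were nearly equal, every SBES library exceeded them, and SBES 1 was just below Untrained 3. The log2 fold change was 2.08 (SE 0.53) in SBES against Sham (edgeR adjusted p = 0.145, with the replicate number as a block 0.0461; DESeq2 adjusted p = 0.00464) and 1.63 (SE 0.52) in SBES against Untrained (edgeR adjusted p = 0.83). Without SBES 3 it was 1.16 and 0.71.

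Cebpd, on chromosome 16 at 15887286 to 15891031, plus strand, encodes the related factor known as an early responder to cytokines and glucocorticoids. It stood at 42.1, 36.8 and 194 CPM in SBES, 12.8, 23.8 and 23.8 CPM in Untrained and 7.63, 16.2 and 7.58 CPM in Sham libraries. SBES 3 was 4.62 times above the next library, and the other SBES libraries were also above all Untrained and Sham libraries. Its log2 fold change of 3.12 (SE 0.61, a fold of 8.68) in SBES against Sham missed edgeR's threshold narrowly (adjusted p = 0.0593) and passed with the replicate number as a block (2.86, edgeR adjusted p = 0.0319) and in DESeq2 (adjusted p = 6.63e-06). In SBES against Untrained it was 2.18 (SE 0.58, edgeR adjusted p = 0.749, DESeq2 adjusted p = 0.0374). Without SBES 3 it was 1.91 and 0.97 (edgeR adjusted p = 0.129 and 0.957), each with an unadjusted p under 0.05. Leaving out SBES 1, SBES 2 or Untrained 1 brought Cebpd past edgeR's threshold in SBES against Sham (adjusted p = 0.0318, 0.038 and 0.0489), and leaving out any other library did not.

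Some of these genes share sequence with a gene on the opposite strand, and the strand setting of the counting is not given in the sources used here. Cebpb overlaps Tmem189 over 908 bases, 312 of them exonic in both, and Tmem189 stood at 87.7, 34.0 and 39.5 CPM in SBES, 64.3, 51.4 and 72.4 CPM in Untrained and 57.3, 58.6 and 39.3 CPM in Sham libraries. Tmem189 was highest in SBES 1 and Cebpb in SBES 3. Cebpd overlaps Spidr over 562 exonic bases, and Spidr had at most 45 counts in a library. Il6ra overlaps Gm42809, which had at most 11 counts, and the exonic overlaps of Stat3 with Stat5a and of Jak1 with Raver2 are 72 and 4 bases. The effect of these overlaps on the counts was not tested.

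SBES 3, the library stimulated at 20 Hz, was the highest of all 9 libraries for 6 of the 10 genes, Il6ra, Osmr, Stat3, Socs3, Cebpb and Cebpd, against 12.7% of all genes. Its excess over the next library was 4.62-fold for Cebpd, 3.35-fold for Cebpb, 3.02-fold for Socs3, 1.82-fold for Il6ra, 1.55-fold for Stat3 and 1.29-fold for Osmr. At least 2-fold above every other library in SBES 3 were 89 genes in all, or 0.56%, and these include Cebpd, Cebpb and Socs3. Without SBES 3 the count of genes with an unadjusted p under 0.05 and SBES higher was 4 of 10 in SBES against Sham (6 with all libraries), against 5.3% of all genes. In SBES against Untrained it was 2 of 10 (5 with all libraries), against 3.18%. The summed level of 10 microglial markers was also highest in SBES 3, at 2470 CPM, against 769 and 1516 CPM in the other SBES libraries, 1042 to 1251 CPM in Untrained and 591 to 1359 CPM in Sham libraries. C1qa and C1qb reached 714 and 1101 CPM among SBES libraries, the highest of the 10 markers there. In SBES against Untrained 4 of the markers had a positive and 6 a negative log2 fold change. At an unadjusted p under 0.05 in edgeR 3 of the markers were lower in SBES (1.67% of all genes) and 0 higher (3.7%). The part of microglial RNA in the levels of the 10 genes was not tested.

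Levels can be set against each other between genes only per length, as deposited FPKM (counts scaled by exonic length and library total). In Sham libraries Cntfr led with 13.04 ± 4.71 FPKM (SD, n = 3), followed by Jak1 with 8.94 ± 1.33, Cebpb with 7.66 ± 1.92, Stat3 with 4.11 ± 0.734, Cebpd with 2.85 ± 1.86, Il6st with 1.70 ± 0.1002, Lifr with 1.57 ± 0.226, Socs3 with 0.387 ± 0.105, Il6ra with 0.233 ± 0.0551 and Osmr with 0.127 ± 0.0808. The ranges of neighbours in this order over the 3 libraries overlapped, with 2 exceptions. Every value of Cebpb was above every value of Stat3, and every value of Lifr above every value of Socs3. Within each Sham library Cntfr also lay above Jak1, Jak1 above Cebpb, Il6st above Lifr and Il6ra above Osmr. In SBES libraries Cebpb (33.0 ± 28.6 FPKM) and Cebpd (24.0 ± 24.9 FPKM) had the highest means, with the wide spread that SBES 3 gave them, ahead of Cntfr (10.8 ± 1.09 FPKM). In Untrained libraries Cebpb (11.9 ± 6.81 FPKM), Cntfr (11.6 ± 7.55 FPKM) and Jak1 (10.2 ± 1.74 FPKM) were alike within their spread. The receptor of interleukin 6 itself stayed low throughout, at 0.837 ± 0.414 FPKM in SBES, 0.370 ± 0.108 FPKM in Untrained and 0.233 ± 0.0551 FPKM in Sham libraries.

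The cytokines that would engage these receptors were barely counted. Il6 had 0 counts in all SBES and Untrained libraries and 2 counts in Sham 3. A count of 0 allows a level of up to 0.164 to 0.334 CPM, depending on the library, taking 3 counts as the limit, which covers counting error only. Lif had 0 to 6 counts per library, Osm 0 to 16, Cntf 0 to 31, Il11 1 to 11, Clcf1 3 to 24, and Il27 and Ctf2 0 to 2. Ctf1 (9 to 73) and Ebi3 (13 to 85) had more. Of the 11 ligand genes 5 passed the filter on low counts, and none of these had an unadjusted p under 0.05 in any comparison. Of the other receptors of the family, Il11ra1, the receptor of interleukin 11, passed the filter, and it stood at 90.3 ± 25.6 CPM in SBES, 83.3 ± 29.1 CPM in Untrained and 74.7 ± 26.3 CPM in Sham libraries (SD, n = 3 each), differences within the spread.

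Other genes of the signalling step differed little. Of 8 further Janus kinase and STAT genes tested, 1 had an unadjusted p under 0.05, Stat5b in SBES against Untrained (18.3 and 11.6 CPM, log2 fold change 0.66, SE 0.27, edgeR adjusted p = 0.914). Among 15 negative regulators of the pathway other than Socs3, the phosphatase gene Ptpn11 was the 1 gene with an unadjusted p under 0.05, at means of 176 CPM in SBES, 105 CPM in Untrained and 99.0 CPM in Sham libraries (log2 fold change 0.75, SE 0.27, against Untrained and 0.83, SE 0.27, against Sham; edgeR adjusted p = 0.896 and 0.282). Ptpn11 encodes SHP2, which binds gp130 and receptor kinases. Among 3 further C/EBP genes tested, Cebpa averaged 5.67 CPM in SBES and 2.17 CPM in Sham libraries (log2 fold change 1.38, SE 0.57, edgeR adjusted p = 0.485). Cebpg averaged 18.1 CPM in SBES and 26.2 CPM in Untrained libraries (log2 fold change -0.53, SE 0.24, edgeR adjusted p = 0.918). None of these lists had a gene past edgeR's adjusted threshold.

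Of 28 genes listed as STAT3 targets, 27 were tested and 5 of them are among the 10 genes. For the other 22, the median log2 fold change was 0.79 in SBES against Sham, 0.57 with SBES set against Untrained and 0.30 in Untrained against Sham. In the first of these 9 of the 22 had an unadjusted p under 0.05 with SBES higher (5.7% of all genes) and 1 with SBES lower (3.61%). SBES against Untrained had 3 such genes higher (3.7% of all genes) and 1 lower (1.67%), and the injury comparison had 2 with Untrained higher (2.18%). None passed edgeR's adjusted threshold in any comparison. Without SBES 3 the medians were 0.54 in SBES against Sham and 0.34 in SBES against Untrained, with 6 and 2 genes higher at an unadjusted p under 0.05 (5.3% and 3.18% of all genes). The list mixes genes of several cell types and was drawn up with earlier results of these data known, so its direction is no independent evidence.

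Lcn2, encoding the iron-siderophore binding lipocalin 2 of the acute phase, differed most in the list. It stood at 129, 138 and 632 CPM in SBES, 34.0, 29.3 and 22.5 CPM in Untrained and 41.6, 11.0 and 7.03 CPM in Sham libraries. Every SBES library was above every other library, SBES 3 furthest. The log2 fold change was 3.93 (SE 0.75) in SBES against Sham (edgeR adjusted p = 0.0521, DESeq2 adjusted p = 0.000793) and 3.39 (SE 0.72) in SBES against Untrained (edgeR adjusted p = 0.568, DESeq2 adjusted p = 0.0383). Serpina3n, a protease inhibitor of reactive astrocytes, stood at 137, 253 and 411 CPM in SBES, 96.0, 75.1 and 145 CPM in Untrained and 135, 52.4 and 55.2 CPM in Sham libraries, with SBES 1 just above the highest Sham and below the highest Untrained library. Hspb1, a small heat shock protein gene, stood at 392, 281 and 981 CPM in SBES, 105, 192 and 192 CPM in Untrained and 230, 138 and 191 CPM in Sham libraries, so that all SBES libraries were above the rest (log2 fold change 1.57, SE 0.43, against Sham, edgeR adjusted p = 0.187). DESeq2 called Hspb1 against Sham and against Untrained (adjusted p = 0.0178 and 0.0267) and Serpina3n against Sham (0.00917). Gfap and Ccnd1 were picked for mention after their values were seen. Gfap, the intermediate filament gene of astrocytes, overlapped between groups, at 1635, 2652 and 4379 CPM in SBES, 1150, 1893 and 3664 CPM in Untrained and 3095, 1665 and 1956 CPM in Sham libraries. Ccnd1, the cyclin D1 gene, went the other way, at means of 16.1 CPM in SBES and 33.6 CPM in Sham libraries (log2 fold change -1.06, SE 0.30, edgeR adjusted p = 0.21).

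**Figure D3:**
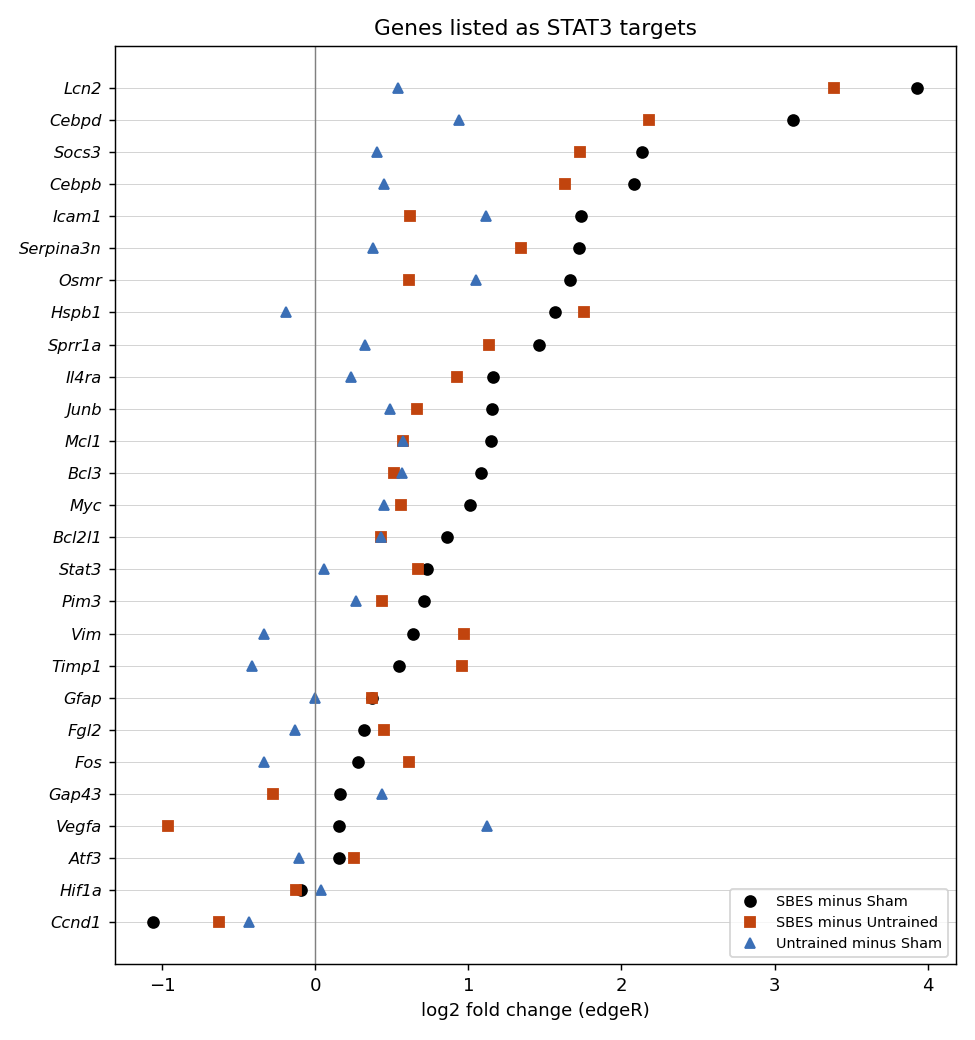
Fitted log2 fold changes (edgeR) of the 27 tested genes listed as STAT3 targets, including the 5 that are among the 10 genes, in SBES minus Sham (circles), SBES minus Untrained (squares) and Untrained minus Sham (triangles), ordered by SBES minus Sham. Lcn2 and Cebpd have the highest values in SBES minus Sham, 3.93 and 3.12, and Ccnd1 the lowest, -1.06.

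Of 16 acute phase and C/EBP target genes, 11 were tested, with a median log2 fold change of 0.93 in SBES against Sham, 0.76 with SBES set against Untrained and 0.18 in Untrained against Sham. An unadjusted p under 0.05 with SBES higher was found for 3 of the 11 genes in each of the comparisons with SBES. Of all genes that held for 5.7% against Sham and 3.7% against Untrained. In Untrained against Sham none of the 11 had an unadjusted p under 0.05 (4.45% of all genes). None passed edgeR's adjusted threshold in any comparison. The metallothionein gene Mt2 averaged 4155 CPM in SBES, 1013 CPM in Untrained and 920 CPM in Sham libraries (log2 fold change 2.18, SE 0.59, against Sham and 2.04, SE 0.58, against Untrained; edgeR adjusted p = 0.179 and 0.749, DESeq2 adjusted p = 0.0038 and 0.0491). Cp, encoding the copper-carrying ferroxidase ceruloplasmin, averaged 15.9 CPM in SBES, 10.1 CPM in Untrained and 6.23 CPM in Sham libraries (log2 fold change 1.38, SE 0.42, against Sham, edgeR adjusted p = 0.243).

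Cebpb, Cebpd and Socs3 are also known to respond to glucocorticoids and to neuronal or cytokine stimuli as early genes. Of 12 glucocorticoid response genes, 6 rose in SBES against Sham in edgeR, Ddit4, Nfkbia, Per1, Klf9, Cdkn1a and Zbtb16 (adjusted p = 0.0149, 0.0268, 0.0285, 0.0339, 0.0366 and 0.0386), against 0.346% of all genes called in either direction. The summed level of the 12 was 8990, 3719 and 6882 CPM in SBES, 1385, 1949 and 2422 CPM in Untrained and 2264, 1225 and 1145 CPM in Sham libraries. SBES libraries were thus all above the others, with SBES 1 rather than SBES 3 highest. Mt2, 1 of the 12 and also in the acute phase list, held 7266 of the 8990 CPM in SBES 1. The place of SBES 1 in this sum therefore rests on Mt2. Of 23 immediate early genes tested, 2 rose in SBES against Sham, Per1 again and Zfp36 (edgeR adjusted p = 0.0285 and 0.0486), and the sum of the list was 601, 509 and 1068 CPM in SBES, 482, 341 and 430 CPM in Untrained and 433, 350 and 330 CPM in Sham libraries. Without SBES 3 no gene of either list passed edgeR's threshold, while 10 of the 12 and 8 of the 23 had an unadjusted p under 0.05 in SBES against Sham, as did 9.22% of all genes. Endothelial markers had sums over 10 genes of 574 to 836 CPM in SBES, 469 to 677 CPM in Untrained and 298 to 503 CPM in Sham libraries. SBES and Untrained overlapped in this sum, both reached above the Sham libraries, and edgeR called none of the 10 markers in any comparison. The part of these lists in the levels of the 10 genes was not tested.

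The likeness of expression patterns was described by Pearson's r of log2 CPM over the 9 libraries, which share their depth and cell mixture, among 9358 or 9359 genes with a mean FPKM of at least 1. For Socs3 the gene with the highest r was Stat3 (r = 0.97, Spearman's rho 0.98), followed by Klhl36, Sh2b2, Wnt3 and Rasd1 (r = 0.96 to 0.95). Without SBES 3 the r of Socs3 with Stat3 was 0.94. For Cebpb the closest genes were Ucp2 and Dnm2 (both r = 0.98), Arvcf, Stat3 (both r = 0.97) and Sh2b2 (r = 0.96), so that Stat3 and Sh2b2 stood among the 5 closest genes of both Socs3 and Cebpb. For Cebpd they were Angptl4 (r = 0.98), Grrp1, Foxo1, Gata2 (each r = 0.97) and Nup62 (r = 0.96). Stat3 was not among these 5, with r = 0.89 and rho = 0.82 to Cebpd, a rho close to that of Stat3 with Cebpb (0.83). The r of Stat3 without SBES 3 was 0.69 with Cebpd and 0.93 with Cebpb. For Osmr the closest genes included Cp (r = 0.98), Nrros, Flt1 (both r = 0.95) and Ecm1 (r = 0.94), of which Flt1 is an endothelial marker. These values describe 9 libraries and say nothing of shared control.

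**Figure D4:**
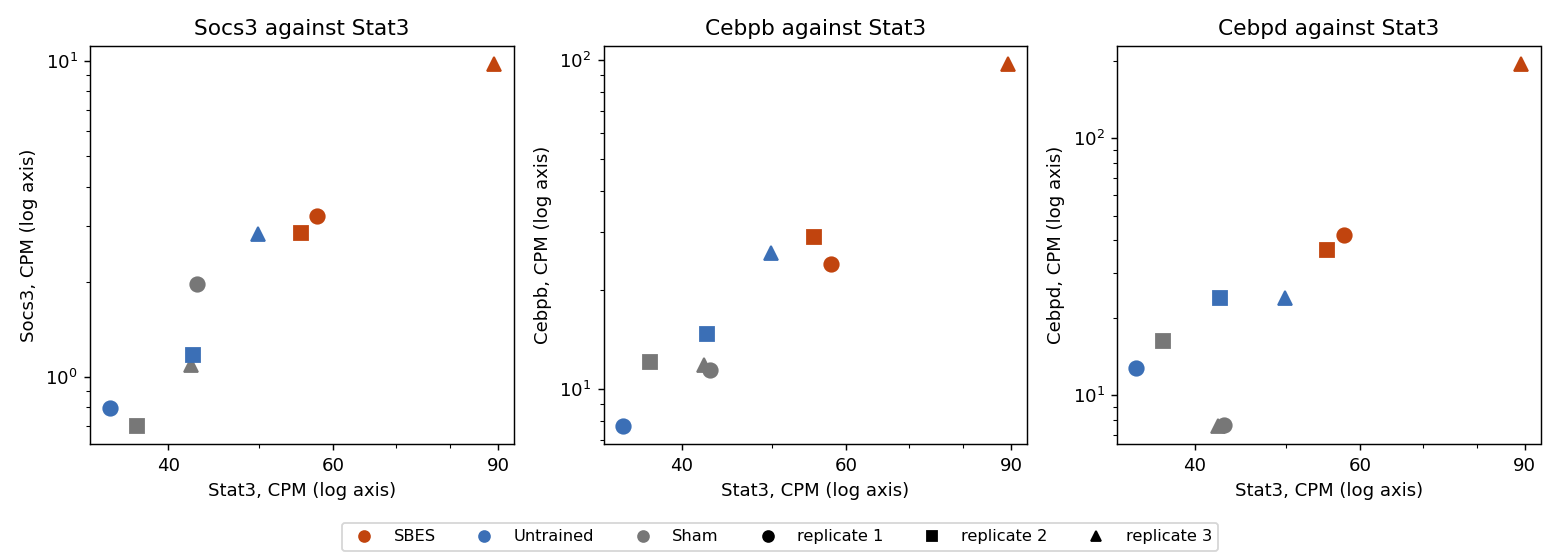
Level of Socs3, Cebpb and Cebpd (vertical, CPM, log axis) against that of Stat3 (horizontal, CPM, log axis) in the 9 libraries, with colour for the group and shape for the replicate number. SBES 3 is at the upper right of each panel, with Stat3 at 89.2 CPM, and in the Socs3 panel the other 8 libraries lie in nearly the same order on both axes.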

How the data were processed

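Per the labels' protocols, the authors aligned paired-end reads with Hisat2 2.0.1 and counted genes with HTSeq 0.6.1. The submitters' processing notes name mm10 as the genome. The strand setting of the counting is not given in the sources used here. Whole-number counts and FPKM were deposited for 55401 genes, and all FPKM values could be recomputed from the counts and exonic lengths within 0.006. The columns of the Untrained libraries and of SBES 1 were matched by elimination, the others by name. Counts were tested with edgeR 4.0.16 (quasi-likelihood, TMM scaling, filterByExpr) in R 4.3.3, all 9 libraries in 1 fit with a coefficient per group, and adjusted by Benjamini-Hochberg over 15893 genes with a threshold of 0.05. DESeq2 1.42.0 and limma 3.58.1 on log2(FPKM + 1) or log2(FPKM + 0.1) (FPKM of at least 1 in 3 libraries) were alternatives, as were other scalings, filters, samples and left-out libraries. The edgeR script was tested on simulated data. Total counts were 11821145 to 17675948 per library. Reads were counted without molecular identifiers, so limits from counts cover counting error only.

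Replicate numbers in the titles may pair samples. Deviations from the group means of same-numbered libraries correlated at 0.27, 0.16 and 0.14 for numbers 1, 2 and 3 in SBES and Sham, all above 0.1, and were treated as paired from the data alone. They did not all exceed 0.1 in SBES and Untrained (0.24, -0.17 and 0.26) or in Untrained and Sham (0.39, 0.001 and 0.22). The 3 deviations of a group sum to 0, so the 3 correlations of a comparison are not independent. Unlike-numbered libraries were not set against each other. In SBES the number also goes with the frequency. The block fit held all 9 libraries, and the calls made with it depend on a pairing that no label gives.

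The 10 genes and all gene lists were chosen with earlier results of these data known. From each list the text names every gene that edgeR called, or otherwise up to 3 genes per comparison of smallest unadjusted p beside the 10, and it gives the ligands by their counts. Likeness lists hold the 5 genes of highest r, computed with a prior count of 2. Some genes that these rules name are left out of the text.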

Additional observations from a re-analysis of the deposited data

How the results depend on the processing

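Of 288 fold changes of the 10 genes under other scalings, filters, tests and samples, 265 kept their sign, as did 250 of 270 with 1 library left out; limma gave no value for Il6ra and Osmr, which its filter on FPKM removed. In SBES against Sham, where 55 genes and none of the 10 were called by edgeR, the counts of genes were 517 with no filter (5 of the 10), 300 in DESeq2 (4), 19 and 17 in limma with pseudocounts of 1 and 0.1, 581 without the libraries numbered 1 (5), and 0 to 86 with 1 library left out (0 to 1 of the 10), lowest without Sham 3 and 4 without SBES 3. Scaling by total count called 1 of the 10, Cebpd. In SBES against Untrained, where none was called, counts were 186 with no filter (3 of the 10), 33 in DESeq2 (1), 1 in limma with a pseudocount of 1, 13 without the libraries numbered 1, and 0 to 1 with 1 library left out. In Untrained against Sham, where none was called, they were 134 with no filter, 19 in DESeq2, 1 with total count scaling, 1 in limma with 0.1 and 47 without the libraries numbered 1. The fit with no filter tested 31752 genes, limma 11465 and the main fit 15893, so these counts are out of unlike totals. In SBES against Sham the shares called were 0.346% in the main fit, 1.89% in DESeq2 and 3.58% without the libraries numbered 1. The causes were not tested.

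With the replicate number as a block, the pairing gave 132 genes (2 of the 10) in SBES against Sham, where the numbers were treated as paired. In the other comparisons samples share only a number, and the replicate block gave 4 genes in Untrained against Sham and 0 in SBES against Untrained, with none of the 10. It changed no other call.

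The following log2 fold changes turned sign. In Untrained against Sham, Il6st, Lifr and Jak1 were at 0.14, 0.20 and 0.19 with total count scaling, 0.079, 0.075 and 0.17 in limma with a pseudocount of 1, 0.11, 0.079 and 0.18 with 0.1, and 0.25, 0.35 and 0.15 without the libraries numbered 1. Lifr and Jak1 were at 0.033 and 0.031 with no filter and 0.0044 and 0.0041 with only these groups fitted. With 1 library left out the ranges were -0.22 to 0.11 for Il6st, -0.40 to 0.29 for Lifr, -0.9996 to 0.023 for Cntfr, -0.13 to 0.12 for Jak1, -0.077 to 0.22 for Stat3, -0.29 to 0.86 for Socs3 and -0.069 to 0.82 for Cebpb. In SBES against Untrained, Jak1 was at -0.15 with total count scaling, -0.13 and -0.14 in limma and -0.081 without the libraries numbered 1, Cntfr at -0.096 with total count scaling and -0.45 without the libraries numbered 1, where Lifr was at -0.0054. With 1 library left out Cntfr ranged from -0.20 to 0.82 and Jak1 from -0.025 to 0.19. In SBES against Sham those ranges were -0.42 to 0.022 for Cntfr and -0.031 to 0.18 for Jak1.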

Other observations

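The balance between genes of the same step also differed between libraries, in ratios of FPKM that were picked after the values were seen and were not tested. Il6ra over Il6st, the specific over the shared receptor subunit, was 0.372, 0.244 and 0.690 in SBES, 0.201, 0.161 and 0.230 in Untrained and 0.144, 0.170 and 0.1 in Sham libraries, with all SBES libraries above the rest. Cebpd over Cebpb was 0.706, 0.510 and 0.805 in SBES, 0.663, 0.649 and 0.370 in Untrained and 0.268, 0.536 and 0.256 in Sham libraries, and the groups overlapped.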
